A study of Homo sapiens with 4 samples.

Results

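The genes described here are 59 neighbours on the long arm of human chromosome 5, from HBEGF at 5q31 to CPEB4 at 5q35, out of 19775 genes that could be named on the array. They were chosen by the difference in expression between CD133+ and CD133- cells, since runs of neighbours in this region had lower values in CD133+ cells. Every count or median of that difference below is therefore a description with no test. Each gene was represented by 1 probe set, the one whose RMA value averaged over both populations was highest, and all 59 genes had one. Of these, 53 were above an expression floor, which is the median RMA value of all probe sets in the column of the population with the higher value. The 6 genes under it were ANKHD1, CD14, PPP2R2B, SPINK1, SH3TC2 and TIGD6.

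The cells are PLC8024, an established hepatocellular carcinoma line, sorted by flow cytometry into CD133+ and CD133- fractions. In liver cancer CD133 serves as a surface marker of cells with a high capacity to form tumours. Each fraction was deposited once as RMA values on a log2 scale and once as MAS5 values on a linear scale, and the labels do not say whether both came from the same array. They are treated here as 2 processings and not as replicates, so no difference carries an error between sorts or cultures, and no p-value is given. Culture conditions, passage and clonality are not stated in the labels. Neither fraction received a drug or genetic change named in the labels.

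PROM1, the gene of CD133, was at 10.35 in CD133+ cells and 6.04 in CD133- cells (RMA). All 8 hepatocyte and liver tumour markers were above the floor, but they were not level. ALB was at 7.70 and 11.12, a difference of -3.42, but of -0.22 without probe sets ending in _x_at or _s_at. AFP was at 9.05 and 11.83. By the weak count rule defined below, 4 of the 8 were lower in CD133+, against 15.0% of all genes above the floor. Leukocyte markers were mixed: 5 of 8 measured were above the floor, and PTPRC was at 3.01 and 2.94 and not above it. The sum of the 8 RMA values was 45.3 in CD133+ and 43.0 in CD133-, and most of that gap was LYZ, at 11.14 and 9.42. Of 5 endothelial markers 1, PECAM1, was above the floor, at 6.11 and 7.87, and the 5 summed to 21.5 and 23.3. Of 6 fibroblast markers 2 were above it, and the 6 summed to 31.1 and 28.2. Most of that gap was LUM, at 4.54 and 2.01 and under the floor in both fractions. The 2 above the floor, COL1A1 and DCN, had differences of 0.19 and 0.09. Whether these markers take any part in the differences below was not tested. The values are of a whole fraction, so fewer cells with a transcript and less transcript per cell cannot be told apart.

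The stretch from 5q31 to 5q35 is known from blood cancers, where part of it is often deleted in myelodysplastic syndrome, and RPS14, CSNK1A1 and NPM1 are its best known genes in that setting. In liver cancers copy number changes of chromosome arms are common, and genes that lie side by side can then move together in expression measurements. No copy number was measured here. The genes have no common function: 4 encode aminoacyl-tRNA synthetases, and others serve ribosomes, splicing, signalling, the cell cycle, the cytoskeleton, membrane traffic and mitochondria.

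Some of the genes share more than a neighbourhood, because a pair of them can start back to back from one short stretch of DNA. Promoter windows from RefSeq (build GRCh38.p14), which run from 250 bases before to 50 after a start, were found for 55 of the 59 genes, and where a gene had several, the most upstream one was taken. The windows below are shown because the first 3 each hold the starts of such a pair and the last 2 belong to genes with large differences. The HARS2 window at chr5:140691205-140691504 (plus strand) also holds the start of HARS1, 85 bases away on the other strand. The HDAC3 window at chr5:141636800-141637099 (minus strand) holds that of RELL2, 148 bases away. The IK window at chr5:140647579-140647878 (plus strand) holds that of NDUFA2, 199 bases away. The ABLIM3 window is at chr5:149141243-149141542 and the LARP1 window at chr5:154682729-154683028, both on the plus strand. Capitals mark every match, on either strand, to GGGCGG (the GC box), CCAAT (the CCAAT box), CCGGAAG (a core recognised by ETS factors) or TATAAA (the TATA box).
HARS2: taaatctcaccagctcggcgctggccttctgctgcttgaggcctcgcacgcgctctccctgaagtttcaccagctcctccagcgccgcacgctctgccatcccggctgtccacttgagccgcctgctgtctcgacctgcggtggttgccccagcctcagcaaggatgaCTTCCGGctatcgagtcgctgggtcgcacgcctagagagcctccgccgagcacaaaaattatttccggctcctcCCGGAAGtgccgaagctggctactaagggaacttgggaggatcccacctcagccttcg
HDAC3: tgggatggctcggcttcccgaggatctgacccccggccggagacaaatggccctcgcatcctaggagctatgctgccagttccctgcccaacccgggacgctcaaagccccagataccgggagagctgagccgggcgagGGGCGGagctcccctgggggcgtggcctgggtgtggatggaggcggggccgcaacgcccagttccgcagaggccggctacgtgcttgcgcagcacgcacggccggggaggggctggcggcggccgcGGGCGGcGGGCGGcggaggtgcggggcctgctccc
IK: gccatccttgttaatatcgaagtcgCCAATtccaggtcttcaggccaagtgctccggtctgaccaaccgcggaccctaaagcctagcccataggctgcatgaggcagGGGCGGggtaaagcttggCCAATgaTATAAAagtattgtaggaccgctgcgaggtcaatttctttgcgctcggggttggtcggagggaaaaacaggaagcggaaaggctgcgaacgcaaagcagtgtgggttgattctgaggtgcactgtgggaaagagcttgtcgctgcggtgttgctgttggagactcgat
ABLIM3: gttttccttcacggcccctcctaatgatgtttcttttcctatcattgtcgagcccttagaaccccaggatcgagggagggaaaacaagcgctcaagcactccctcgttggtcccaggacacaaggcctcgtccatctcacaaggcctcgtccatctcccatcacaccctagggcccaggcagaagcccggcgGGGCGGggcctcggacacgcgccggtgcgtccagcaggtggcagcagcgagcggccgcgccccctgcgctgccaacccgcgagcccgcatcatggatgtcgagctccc
LARP1: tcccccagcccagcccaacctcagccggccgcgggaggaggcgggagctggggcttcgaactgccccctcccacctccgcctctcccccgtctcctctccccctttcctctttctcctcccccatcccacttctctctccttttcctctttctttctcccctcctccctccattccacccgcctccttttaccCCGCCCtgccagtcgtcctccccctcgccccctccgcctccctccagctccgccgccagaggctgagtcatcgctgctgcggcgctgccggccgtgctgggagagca

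The printed windows hold 23 CG dinucleotides for HARS2, 31 for HDAC3, 17 for IK, 24 for ABLIM3 and 19 for LARP1. Over the 55 genes the median was 22, the same as over 15384 genes on the array with a window, and it was 7.5 over the 6 genes under the floor. The GC box was found in 54.5% of the 55 windows and in 58.8% of those 15384, and the CCAAT box in 45.5% and 36.1%. CCGGAAG was in 14 windows, or 25.5%, against 14.3% of those of the array and 10.6% of all 27305 windows in the table. The windows of HARS1 and HARS2 overlap, as do those of TIGD6 and HMGXB3, with starts 85 bases apart. Each of these genes is among the 14, so a shared site can be counted more than once. TATAAA was in 3 windows, or 5.45%, against 8.86%. No motif searched contains another, a match shows only that the letters are there, and no test of these shares was made.

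Most of the listed genes were lower in CD133+ cells, by a small amount. Of the 53 above the floor, 48 had an RMA difference (CD133+ minus CD133-) below 0, against 49.9% of all 13116 genes above the floor, and 44 were below 0 in both processings, against 39.1%. Their median RMA difference was -0.36, which is 1.29-fold lower, with quartiles of -0.58 and -0.21, and their median MAS5 log2 ratio was -0.40. Over all genes above the floor these medians were 0.00 and 0.0049. A weak count rule, an RMA difference of at least 0.32 in size with the same sign in MAS5, was met by 29 of the 53 as lower, against 15.0% of all genes, and by none as higher, against 14.6%. At 2-fold in both processings 1 gene, ABLIM3, was lower, against 1.09%, and none was higher, against 2.25%. Since this contrast chose the genes, these shares are not read as a result about them.

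As a measure of technical spread, the RMA differences of 2 probe sets of one gene had an SD of 0.35 around each other over 6170 genes, and 0.79 in MAS5. A single gene's difference of the size of the median is thus about as large as this spread. Of the 53 genes, 38 had a second probe set above the floor, and in 35 of these its difference was below 0. In 33 of the 38 it had the sign of the first probe set. The share below 0 over all genes was 49.9% for first probe sets and was not computed for second ones. Second probe sets measure the same genes in the samples that chose them, so this is a description as well. The second probe sets had a median of -0.34, against -0.33 for the first probe sets of the same genes, and the gap between them had an SD of 0.26. In 30 of the 59 genes the probe set used ends in _s_at or _x_at, which marks probes that match more than 1 transcript.

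**Figure D1:**
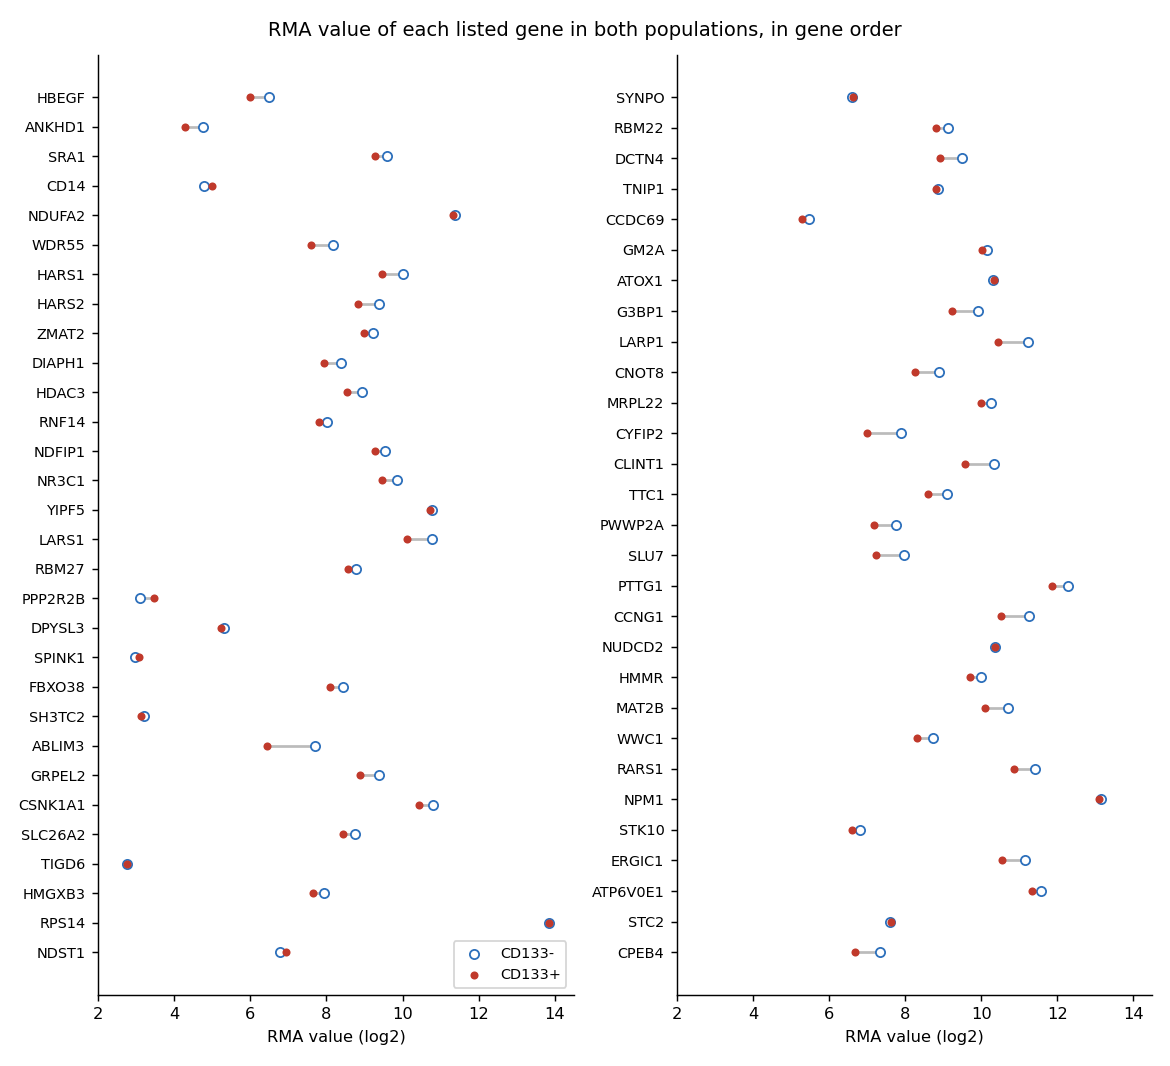
RMA value (log2 scale) of each of the 59 genes in CD133+ (filled red) and CD133- (open blue), 1 value each, in gene order from HBEGF at the top left to CPEB4 at the bottom right. The CD133- point lies to the right of the CD133+ point in most genes, with the widest gap at ABLIM3, and the points nearly coincide at RPS14, NUDCD2 and ATOX1.

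The aminoacyl-tRNA synthetases, which load amino acids onto their tRNAs, were lower in CD133+ by similar amounts in RMA. Their 4 members had RMA differences from -0.66 to -0.54 and a median of -0.54, and all 4 met the weak count rule as lower, against 15.0% of all genes. In MAS5 they were spread more widely, with log2 ratios from -0.86 to -0.44. HARS1, the cytosolic histidyl-tRNA synthetase, had RMA values of 9.46 and 10.01 (CD133+ first, as in all pairs of values below) and MAS5 values of 2064 and 3272. HARS2, its mitochondrial counterpart, had RMA values of 8.84 and 9.38 and MAS5 values of 1660 and 2249. These back-to-back genes had almost the same RMA difference, -0.54 each, and each has 1 probe set. LARS1, the leucyl enzyme, had RMA values of 10.13 and 10.78 and MAS5 values of 3354 and 5140. Of its other probe sets above the floor 2 were lower as well, at -0.39 and -0.51, and an _x_at one was at 0.26. RARS1, the arginyl enzyme, had RMA values of 10.87 and 11.42 and MAS5 values of 9688 and 17622.

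Synthetase genes outside the region were lower too. All 14 further cytosolic synthetase genes above the floor had RMA differences below 0, from -0.88 for SARS1 to -0.06 for KARS1, with a median of -0.40, and 8 met the weak count rule as lower, against the same 15.0%. TARS1, which lies on the other arm of chromosome 5, was at -0.63. The lower values of HARS1, LARS1 and RARS1 were therefore shared with enzymes of the same function outside the region, and position and function cannot be told apart for them.

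The 8 genes of ribosomes, the nucleolus and translation were all below 0, with a median of -0.59, which was -0.32 with the median over each gene's probe sets. LARP1, which binds mRNAs of ribosomal proteins, had RMA values of 10.44 and 11.22 and MAS5 values of 7071 and 11376, which is 1.72-fold and 1.61-fold lower. G3BP1, a core protein of stress granules, had RMA values of 9.24 and 9.91 and MAS5 values of 2770 and 4635. Its other probe sets above the floor ran from -0.78 to 0.06, and the median over all its probe sets was -0.29. CNOT8, a deadenylase subunit of the CCR4-NOT complex, had RMA values of 8.25 and 8.88 and MAS5 values of 1262 and 1857. CPEB4, which controls poly(A) tails and is the last gene of the list, had RMA values of 6.68 and 7.34 and MAS5 values of 493.6 and 855.2. A pair of its other probe sets had larger differences, -1.46 and -1.43, and the median over its probe sets was -1.05. WDR55, a nucleolar protein, and MRPL22, of the mitochondrial ribosome, had RMA differences of -0.56 and -0.26. The other WDR55 probe sets above the floor had smaller differences, -0.19 and -0.21.

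RPS14 and NPM1 stood apart from the other 6. RPS14, a protein of the small ribosomal subunit, had RMA values of 13.85 and 13.86, a difference of -0.01, and MAS5 values of 51032 and 45378, which is higher in CD133+. Another of its probe sets, of far lower signal, had an RMA difference of -0.49. NPM1, the nucleolar chaperone nucleophosmin, had RMA values of 13.08 and 13.15 and MAS5 values of 42361 and 38049. Its other probe sets had differences of -0.35 each. Both genes have processed pseudogenes of very similar sequence, and these probe sets are of the _s_at type, so signal from copies elsewhere cannot be told apart from that of the genes. Of 14 other small-subunit ribosomal protein genes above the floor, none met the weak count rule, and their median was 0.08 in RMA and 0.26 in MAS5. The CCR4-NOT genes elsewhere were also below 0 in 9 of 9, with a median of -0.26, with CNOT10 at -0.80 and CNOT6, which lies after CPEB4 on the same arm, at -0.60. That median was -0.42 in MAS5, -0.15 with the median over probe sets and -0.077 without _x_at and _s_at probe sets.

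Genes of splicing and other RNA binding had a median of -0.30, and all 5 above the floor were below 0. SLU7, a second-step splicing factor, had RMA values of 7.24 and 7.96 and MAS5 values of 762.1 and 1001, and its other probe set was at -0.83. RBM22, another spliceosome protein, was at -0.33, with its other probe sets above the floor at -0.29 and -0.32. SRA1, whose transcript acts as a steroid receptor coactivator, was at -0.30, ZMAT2, a zinc finger protein of the spliceosome, at -0.24, and RBM27 at -0.21. ANKHD1 was under the floor in both fractions, at 4.28 and 4.77. Of 10 other spliceosome genes 7 were below 0, with a median of -0.22, which turned to 0.19 over the 6 left without _x_at and _s_at probe sets. SF3B2 was at 0.56 in RMA and 0.94 in MAS5, and EFTUD2 was at -0.41 but at 0.0083 without probe sets ending in _x_at or _s_at.

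The ligands, receptors and signalling genes had smaller differences, with a median of -0.27 and 8 of 9 above the floor below 0. HBEGF, a ligand of the EGF receptor and the first gene of the list, had RMA values of 5.98 and 6.48 and MAS5 values of 207.6 and 240.2. Its second probe set above the floor was at -0.30. None of 5 other EGF receptor ligands and receptors above the floor was below 0. ERBB3 and ERBB2, which had the largest differences of those, were at 0.34 each in RMA. With the median over their probe sets both were at 0.07.

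NR3C1, the glucocorticoid receptor, had RMA values of 9.47 and 9.85 and MAS5 values of 2641 and 3259. Its other probe sets above the floor ran from -0.32 to 0.02. Of 9 targets and chaperones of this receptor above the floor 8 were below 0, with a median of -0.21 in RMA and -0.093 in MAS5. DUSP1, a phosphatase gene that itself lies inside the stretch between STK10 and ERGIC1, was at -0.86. TSC22D3 was at 0.89, and at -0.0115 without the _x_at and _s_at probe sets. CSNK1A1, a kinase that marks beta-catenin for destruction, had RMA values of 10.44 and 10.81 and MAS5 values of 6512 and 7082. All 9 of its other probe sets above the floor were below 0, from -0.78 to -0.33, so the one used was among the smaller differences. Of 7 other genes of that destruction complex 5 were below 0, with a median of -0.19 in RMA and -0.052 in MAS5 and none past the weak count rule.

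CD14, the lipopolysaccharide co-receptor of monocytes, was under the floor in both fractions, with RMA values of 4.99 and 4.79 and MAS5 values of 19.8 and 7.55, so it carries no measured difference. LBP, which hands lipopolysaccharide to CD14 and is made by hepatocytes, was at -2.50, and MYD88, an adaptor downstream, at 1.01. Of the monocyte markers, LYZ had RMA values of 11.14 and 9.42, and TYROBP, at 4.69 and 4.64, was not above the floor. CSF1R, FCER1G and ITGAM were above it, with RMA differences of -0.09, -0.39 and 0.31. Their MAS5 log2 ratios were -0.25, 0.0092 and -0.31, so these markers went in no common direction. CD68 had no value. The remaining signalling genes above the floor were WWC1, a Hippo pathway scaffold, at -0.43, NDFIP1 at -0.27, STK10 at -0.23, RNF14 at -0.22, TNIP1, an inhibitor of NF-kappaB signalling, at -0.05, and STC2, the glycoprotein stanniocalcin-2, at 0.04. STC2's other probe set was at 0.39, and the other WWC1 probe sets above the floor ran from -0.66 to 0.28.

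Of the 9 chromatin, cell cycle and nuclear genes above the floor 8 were below 0, with a median of -0.34. CCNG1, the p53 target cyclin G1, had RMA values of 10.51 and 11.25 and MAS5 values of 6910 and 11429. PTTG1, securin, which holds separase inactive until anaphase, had RMA values of 11.85 and 12.29 and MAS5 values of 17488 and 21350. Its 1 probe set is of the _x_at type, and the near-identical copies PTTG2 and PTTG3P elsewhere in the genome can add to it. HMMR, a mitotic spindle protein and hyaluronan receptor, had RMA values of 9.71 and 9.99 and MAS5 values of 3666 and 3721, and its other probe set was at -0.46. NUDCD2, which starts 530 bases from HMMR on the other strand, had an RMA difference of 0.01. Mitotic genes elsewhere had a median of 0.03 in RMA, -0.0086 in MAS5 and 0.32 without _x_at and _s_at probe sets, with 5 of 14 below 0, and the largest were CDK1 at 0.69 and KIF11 at 0.68.

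HDAC3, the histone deacetylase of the NCOR and SMRT corepressor complexes, had RMA values of 8.54 and 8.93 and MAS5 values of 1562 and 1829. RELL2, whose start faces that of HDAC3, had RMA values of 7.08 and 7.61. Both partners of this pair were thus lower, as were HARS1 and HARS2. Of the 5 corepressor partners of HDAC3 above the floor none met the weak count rule, with a median of -0.01 in RMA and -0.17 in MAS5, and TBL1XR1 at -0.20 as the largest. PWWP2A and FBXO38 were at -0.59 and -0.34, HMGXB3 at -0.29 and CCDC69 at -0.17. The other probe sets above the floor were at -0.59 and -0.22 for PWWP2A and at -0.63 and -0.52 for FBXO38. That of HMGXB3 was at 0.02.

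The cytoskeleton group held the 2 largest RMA differences of the list, in ABLIM3 and CYFIP2. Its median over 6 genes was -0.51 in RMA, -1.08 in MAS5, -0.88 with the pseudocount of 50 and -0.36 with the median over probe sets. ABLIM3, an actin-binding LIM protein, had RMA values of 6.44 and 7.71 and MAS5 values of 219.2 and 689.5, which is 2.40-fold and 3.15-fold lower. CYFIP2, a subunit of the WAVE complex that drives actin branching, had RMA values of 6.98 and 7.89 and MAS5 values of 439.6 and 1032. Each of these rests on 1 probe set above the floor, of the _s_at type. DCTN4, of the dynactin complex, was at -0.58 and DIAPH1, a formin, at -0.43, but another DIAPH1 probe set was at 0.19. DPYSL3 and SYNPO had RMA differences of -0.08 and 0.04. Without the _s_at and _x_at probe sets SYNPO alone stayed above the floor in this group.

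Of the 6 genes of membrane traffic and transport above the floor 5 were below 0, with a median of -0.28. CLINT1, a clathrin adaptor, had RMA values of 9.58 and 10.34 and MAS5 values of 3765 and 6531, and its second probe set was at -1.09. ERGIC1, a cargo receptor between endoplasmic reticulum and Golgi, had RMA values of 10.55 and 11.14 and MAS5 values of 5671 and 8618, with its other probe sets above the floor at -0.69 and -0.58. SLC26A2, a sulfate transporter, was at -0.31, and its other probe sets at -0.69 and -0.85. ATP6V0E1, of the vacuolar proton pump, was at -0.25 and YIPF5 at -0.06. The other YIPF5 probe sets, all above the floor, were at -0.17, -0.35 and -0.21 in RMA. In MAS5 those probe sets were at 0.24, -0.24 and -0.16. NDST1, a heparan sulfate enzyme, was the highest of the 53, at 0.14 in RMA, while its other probe set above the floor was at -0.10.

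Of the 6 genes of mitochondria, metabolism and chaperones 5 were below 0, with a median of -0.31, which was -0.49 without _x_at and _s_at probe sets. MAT2B, the regulatory subunit of methionine adenosyltransferase, had RMA values of 10.09 and 10.70 and MAS5 values of 4993 and 7447, and its second probe set was at -0.62. The other genes of this step were lower as well, MAT1A at -0.66 and MAT2A at -0.58. With AHCY, which clears the product of methylation, all 3 genes of that list met the weak count rule as lower, against 15.0% of all genes. GRPEL2, a mitochondrial co-chaperone, was at -0.51, with its second probe set at -1.14, and TTC1 was at -0.49. GM2A, a lysosomal activator protein, had 7 probe sets above the floor, all between -0.20 and 0.0042. ATOX1, a copper chaperone, was at 0.02.

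NDUFA2, a subunit of respiratory complex I, had an RMA difference of -0.05, with values of 11.34 and 11.38. IK, a splicing factor that starts 199 bases from it on the opposite strand and is not on the list, had values of 9.29 and 9.85, a difference of -0.55. In RMA the partners of a shared start region were thus alike for HARS1 and HARS2 and apart for NDUFA2 and IK. Each difference rests on 1 value per gene and fraction. In MAS5 the log2 ratios were -0.66 and -0.44 for HARS1 and HARS2, and 0.09 and -0.44 for NDUFA2 and IK. Among 13 head-to-head arrangements within 1000 bases that involve a listed gene, 4 had both genes above the floor: these 2, HDAC3 with RELL2, and NUDCD2 with HMMR.

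**Figure D2:**
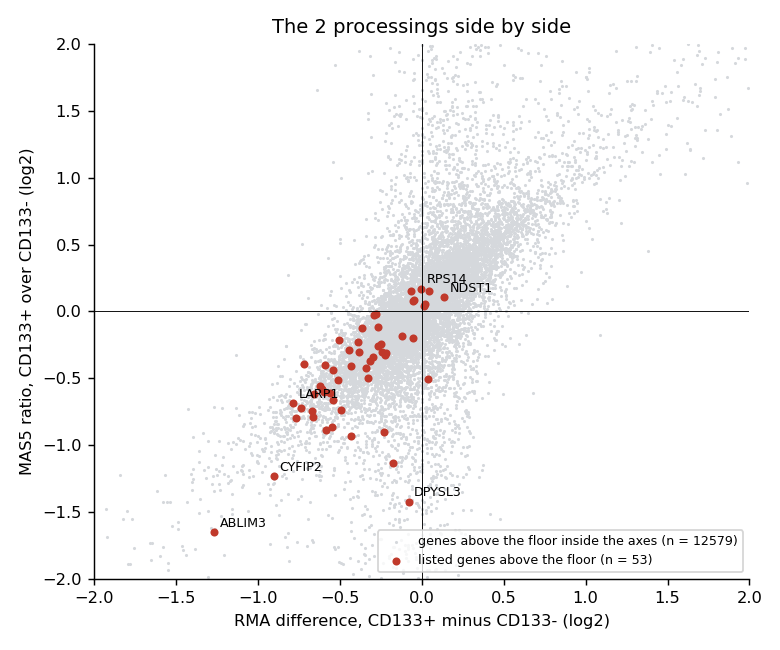
RMA difference (x axis, log2) against MAS5 log2 ratio (y axis) of CD133+ relative to CD133-, for the 53 listed genes above the floor (red) and the 12579 genes above the floor that lie inside the axes (grey). Of the 53, 44 lie below 0 on both axes, and DPYSL3 lies far down on the MAS5 axis while its RMA difference is -0.08.

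The 2 processings differed in sign for 5 of the 53 genes. NPM1, YIPF5, NDUFA2 and RPS14 were below 0 in RMA by at most 0.06 and above 0 in MAS5, and SYNPO was the reverse. All 29 genes counted by the weak rule had the same sign in both by the rule itself. DPYSL3, CCDC69 and STK10, chosen after their values were seen, were much further from 0 in MAS5, at -1.42, -1.13 and -0.90, than in RMA. HBEGF, also of weak signal, went the other way, at -0.50 in RMA and -0.21 in MAS5.

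The list starts at HBEGF because this contrast chose it, so the values on either side of HBEGF are a description and not a test. The 4 genes next before HBEGF, chosen after their values were seen, were PURA at -0.19, IGIP at -0.14, CYSTM1 at -0.07 and PFDN1 at -0.05, and CXXC5 before them was at 0.32. In MAS5 these genes were, in the same order, at -0.11, -0.14, 0.13, -0.84 and 0.23. The 59 genes above the floor next before HBEGF had a median RMA difference of -0.05. Of them 4 met the weak count rule as lower, against 15.0% of all genes, and 7 as higher, against 14.6%. In MAS5 alone their median was above 0, at 0.073, and 13 were counted as lower, against 24.8% of all genes in MAS5 alone. A running median over 21 genes stayed between -0.22 and 0.20 before HBEGF, where 346 of the 356 genes above the floor had one. From HBEGF to CPEB4 it lay between -0.56 and -0.01, so these ranges overlapped.

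The lower values did not end with the list. After CPEB4 the chromosome holds 69 more genes above the floor, and 57 of them were below 0, against 49.9% of all genes. The first 59 of these had a median RMA difference of -0.36 and a median MAS5 log2 ratio of -0.39. Of these 59, 31 met the weak count rule as lower, against 15.0% of all genes, and none as higher, against 14.6%. The running median after CPEB4 lay between -0.42 and -0.25 as far as it could be computed. CPEB4 is thus where the list ends and not where the values return towards 0. These genes were not listed, but their values come from the same samples.

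**Figure D3:**
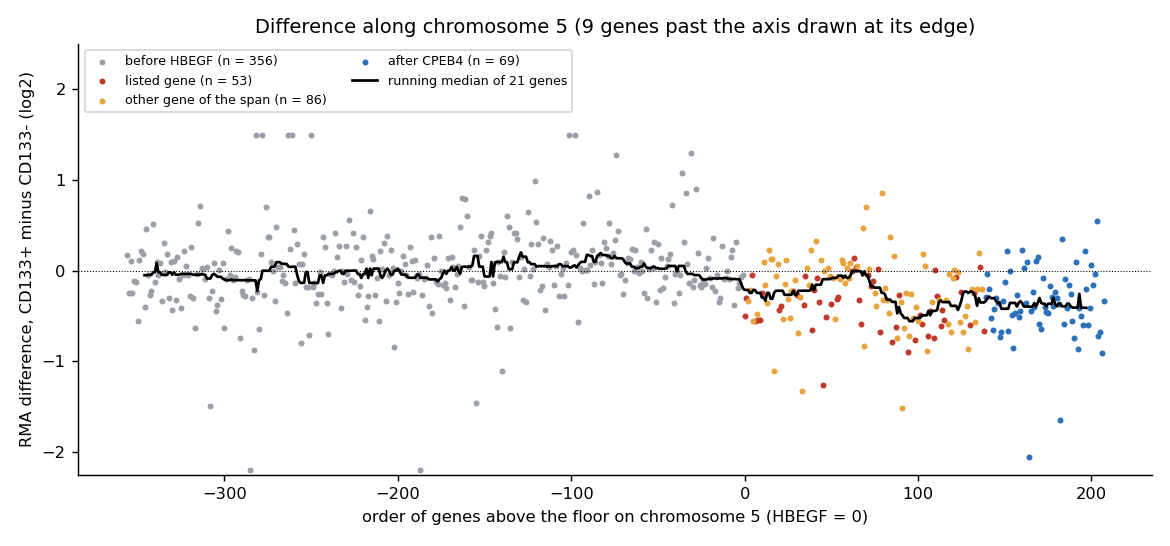
RMA difference (y axis, log2, CD133+ minus CD133-) of the genes above the floor on chromosome 5 in order of position (x axis, HBEGF = 0), with listed genes in red, other genes of the span in yellow, genes after CPEB4 in blue and genes before HBEGF in grey. The black line is the running median of 21 genes, which stays between -0.22 and 0.20 before HBEGF and between -0.42 and -0.25 after CPEB4, and 9 genes past -2.2 or 1.5 are drawn at those limits.

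Genes of the span that were not listed had a smaller median in RMA and a similar one in MAS5. Of 169 such genes measured 86 were above the floor, and their median was -0.20 in RMA and -0.38 in MAS5, against -0.36 and -0.40 for the listed genes. With a floor at the 75th percentile the RMA medians were -0.43 for unlisted and -0.39 for listed genes. In RMA 59 were below 0, against 49.9% of all genes. The weak count rule was met by 31 as lower, against 15.0%, and by 5 as higher, against 14.6%. These unlisted genes were part of the runs from which the listed genes were proposed. Their shares are therefore a description too and not an independent comparison. The lowest RMA difference was that of HAVCR2, the immune receptor TIM-3, with RMA values of 4.70 in CD133+, under the floor, and 6.22 in CD133-. With the median over probe sets HAVCR2 was at -0.41 and ARHGAP26 at -0.59. ARHGAP26 had values of 7.29 and 8.62, and TAF7, a subunit of the general transcription factor TFIID, values of 7.61 and 8.71. FAM200C was at -0.88 in RMA and -0.54 in MAS5. The highest were NMUR2, a neuromedin U receptor, at 0.86, GPX3, the plasma glutathione peroxidase, at 0.70, SMIM3 at 0.47 and HAND1, a heart and limb transcription factor, at 0.37 (MAS5 values of 131.7 and 65.8). The protocadherin clusters, whose genes are chiefly used by neurons, lie inside the span. Of 38 protocadherin genes measured in the span 10 were above the floor, with a median of 0.0050 in RMA and -0.30 in MAS5. These 10 include PCDH1 and PCDH12, which are not genes of the clusters.

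In RMA the differences were smaller among genes of weak signal, and in MAS5 this held only for the genes after CPEB4. Among genes with a mean RMA value of at least 7, a limit chosen after the values were seen, the median was -0.39 over 47 listed genes, -0.43 over 38 other genes of the span and -0.44 over 46 genes after CPEB4. The same medians were -0.03 over 59 genes before HBEGF and -0.04 over all 7792 such genes. Below 7 the 48 other genes of the span had a median of -0.07 and the 6 listed genes -0.13, but in MAS5 these were -0.40 and -0.70. The 23 genes after CPEB4 below 7 had medians of -0.16 in RMA and -0.22 in MAS5. Those from 7 to 9 had medians of -0.47 and -0.49. At the top of the scale, at 11 and over, the 6 listed genes had a median of -0.155, against -0.44 for the 22 between 9 and 11, and in MAS5 -0.078 against -0.39. The listed genes are mostly well expressed ones, which is one measured way in which they differ from the unlisted genes of the span.

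**Figure D4:**
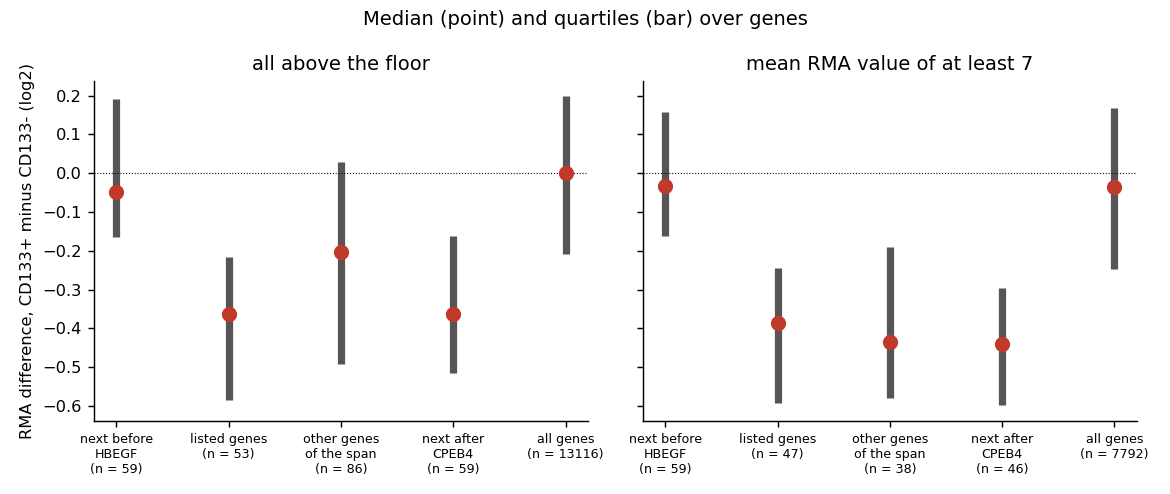
Median (red point) and quartiles (grey bar) of the RMA difference (log2, CD133+ minus CD133-) over genes, for up to 59 genes next before HBEGF, the listed genes, the other genes of the span, up to 59 genes next after CPEB4 and all genes, with all genes above the floor on the left and those with a mean RMA value of at least 7 on the right. The bars show spread over genes and not over replicates. The listed genes have a median of -0.36 on the left and -0.39 on the right, and the other genes of the span go from -0.20 to -0.43.

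Within the list the differences were not even. Cut into 3 stretches after the values were seen, the genes above the floor had a median of -0.38 from HBEGF to RBM27 (15 genes), -0.23 from PPP2R2B to ATOX1 (16 genes) and -0.57 from G3BP1 to CPEB4 (22 genes). The MAS5 medians were -0.31, -0.40 and -0.57, so the order of the first and middle stretches turned. In the middle stretch the 21 unlisted genes had a median of 0.02 in RMA, with 9 below 0, and of -0.25 in MAS5, with 12 below 0. In the last one the 39 unlisted genes had medians of -0.33 and -0.43. The middle stretch holds the gene of the largest difference, ABLIM3, and at its far end RPS14, NDST1, SYNPO, TNIP1, GM2A and ATOX1, all within 0.14 of 0. RBM22, DCTN4 and CCDC69, which lie among these, were at -0.33, -0.58 and -0.17.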

How the data were processed

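Total RNA of 2 fractions of PLC8024 cells was measured on oligonucleotide arrays, with 1 sample per fraction in each processing. The authors deposited linear MAS5 intensity values and log2 RMA values of each fraction. MAS5, RMA and GCOS are named in the submitters' processing notes, with versions, scaling targets and the arrays normalised together not given in the sources used here. Each of the 4 columns held 54675 probe sets. Probe sets with 1 gene in GEO's platform annotation (41097) were named, 41043 of them with a current symbol through the gene ID in a RefSeq table of GRCh38.p14, which also gave the order of genes. The array's own build is not given, so positions printed are only those of RefSeq promoter windows.

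Differences, floors and counts were computed with Python 3.11.15, pandas 2.3.3 and numpy 2.4.6, and the calculation was tested on simulated data. With 1 sample per fraction in each processing no test was run, and the number of arrays limits the precision. Values in every column are given for the 12 listed genes of largest difference, the synthetases and a fixed set of known genes. Of unlisted genes in the span the 4 furthest in each direction were named, and of most pathway lists the 2 largest. Of the HDAC3 partners only the largest was named, and of the small-subunit ribosomal and destruction complex lists none. The listed genes, role groups and pathway lists were chosen with earlier results of these data known. Alternatives were MAS5 alone, a pseudocount of 50, other floors, other probe set choices and a 1.5-fold rule.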

Additional observations from a re-analysis of the deposited data

How the results depend on the processing

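The median difference of the listed genes stayed below 0 under the 6 alternatives that changed the measure, the floor or the probe set, between -0.40 and -0.28. The -0.40 is a median MAS5 log2 ratio, with MAS5 alone. The median with the pseudocount, -0.37, is also one of MAS5 log2 ratios. No paired analysis was possible because each fraction has 1 sample in each processing. A median was taken as moved when it shifted by 0.1 or more, and a count when it changed by more than 1.5 times. With MAS5 alone 4 listed genes were 2-fold lower, against 5.60% of all genes. The weak count rule as lower was then met by 24.8% of all genes. It was met by 48 of the 86 other genes of the span, whose median was -0.38. Of the 59 before HBEGF, whose median was 0.073, 13 met it. With a pseudocount of 50 on MAS5, 2 listed genes were 2-fold lower, against 2.39% of all genes, and the span median was -0.32. Of the 59 before HBEGF, whose median was 0.072, 10 met the weak count rule as lower, against 21.4% of all genes. Under a floor at the 75th percentile, and in an alternative added after the data were seen with a mean RMA value of at least 7, the other genes of the span had a median of -0.43 each. With no floor 1 listed gene, PPP2R2B, met the weak count rule as higher, the span median was -0.086 over 169 genes, and 2 genes before HBEGF were lower. With the median over probe sets 2 listed genes were 2-fold lower and 2 genes before HBEGF met the weak count rule. With the main probe set choice 1.09% of all genes were 2-fold lower. The weak count rule was there met by 15.0% as lower and 14.6% as higher. Without _x_at and _s_at probe sets 38 listed genes were above the floor; 0 of them were 2-fold lower, 17 met the weak count rule as lower and 1 as higher, against 1.10%, 14.2% and 15.2% of all genes there. There the medians of the cytoskeleton group (1 gene left), of other spliceosome genes (6 left) and of hepatocyte markers (3 left) turned to 0.041, 0.19 and 0.026, TSC22D3 to -0.0115 and EFTUD2 to 0.0083. With 1.5-fold as the weak rule 13 listed genes, 12 other genes of the span, 13 of the 59 after CPEB4 and 0 of the 59 before HBEGF were lower, against 5.18% of all genes. The cause of these shifts was not tested. Without replicates no difference can be set against biological spread.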
